A study of Mus musculus with 36 samples.

Results

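The 12 livers of mice fed the control diet were ordered by the ratio of Dbp to Arntl, a pair of clock genes whose mRNAs are known to peak at opposite times of day in liver. The ratio of a library was log2((Dbp count + 1)/(Arntl count + 1)), taken from its raw read counts. The 6 livers with the highest ratio were set beside the 6 with the lowest, and all other genes were compared between them. These 12 libraries are part of a bulk RNA-seq series of 36. All mice were male, of the inbred C57BL/6 strain and 10 weeks old, and no other allele or agent is named. From 4 weeks of age they ate AIN93G, a purified rodent diet, for 6 weeks: alone for the control mice, with 10% red tomato powder for 12 mice (Red) or with 10% tangerine tomato powder for 12 mice (Tangerine). The mouse numbers in the labels all differ and were taken as separate mice. When during the day livers were collected is not labelled, so the ratio stands in for clock phase and is not a measured time.

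Because the higher and the lower set were chosen by the measured counts of Dbp and Arntl, the differences between the sets below are a description and carry no test. In the controls a gene was counted only when all 6 livers of one set lay above all 6 of the other. Genes were tested in the 24 tomato-diet livers, which took no part in the ordering. There the slope of each gene on the continuous ratio, in log2 units per unit of ratio, was fitted with diet as a term by edgeR's quasi-likelihood test. The Benjamini-Hochberg adjustment ran over the 14066 genes tested besides Dbp and Arntl, with a threshold of 0.05. The control livers entered a test in 2 places only, the relation of the ratio to mouse number and total count and the comparison of control with tomato-diet slopes. "Rose" and "fell" below mean that a gene passed this test with a positive or a negative slope. Abundances are in CPM, counts scaled to a common library size, and levels are compared between livers, not between genes.

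The circadian clock of a liver cell is a loop of transcription factors. ARNTL (BMAL1) pairs with CLOCK or NPAS2 and switches on genes that carry an E-box, among them those of the PER and CRY repressors, the REV-ERB receptors (Nr1d1, Nr1d2) and the PAR bZip factors DBP, TEF and HLF. The PER and CRY proteins then shut ARNTL off. The REV-ERB receptors repress Arntl, Npas2, Nfil3 and Cry1 through the elements that the ROR receptors activate. DBP, TEF and HLF act through the D-box, where NFIL3 opposes them, and through it the clock reaches enzymes of liver metabolism.

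The letters of these 3 elements were looked for on both strands of the 250 bases before each transcript start, in RefSeq promoters on GRCm38.p6. Some genes have more than 1 promoter. The E-box searched was CACGTG, the D-box TTANGTAA and the REV-ERB and ROR core TAGGTCA. Of 27025 genes with a promoter, 6.86% held the E-box, 2.44% the D-box and 2.55% the core. The E-box was found in Cry1 of the 6 activator and Arntl-phase genes with a promoter, in Per1, Bhlhe41 and Ciart of the 7 repressors and in Tef of the 2 PAR bZip factors. Among 20 output genes Coq10b, Lonrf3 and Tspan4 held the E-box, Coq10b and Slc45a3 the D-box, and Leo1 and Slc45a3 the core. Nfil3 held the core and Per3 the D-box, while the windows of Dbp and Arntl held none of the 3 strings of letters. The stretches below are shown because genes on both sides of the ratio carry them: Per1, Tef and Coq10b rose with the ratio in the tests that follow, while Cry1 and Leo1 fell. Capitals mark the E-box in Per1 (chr11:69098753-69098818, plus strand), Tef (chr15:81811246-81811311, plus strand) and Cry1 (chr10:85185079-85185144, minus strand). In Coq10b (chr1:55052578-55052727, plus strand) they mark a D-box followed by an E-box, and in Leo1 (chr9:75441431-75441497, plus strand) the core. None of these stretches overlaps an exon of its own gene in GENCODE M21, and exons of other genes were not examined. Those of Per1 and Tef lie within the annotated spans of these genes.
Per1: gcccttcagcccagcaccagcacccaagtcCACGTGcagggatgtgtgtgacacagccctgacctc
Tef: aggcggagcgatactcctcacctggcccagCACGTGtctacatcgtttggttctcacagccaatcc
Coq10b: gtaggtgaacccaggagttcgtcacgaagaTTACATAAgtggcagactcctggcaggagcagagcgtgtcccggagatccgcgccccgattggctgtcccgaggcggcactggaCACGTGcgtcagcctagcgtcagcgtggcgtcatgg
Cry1: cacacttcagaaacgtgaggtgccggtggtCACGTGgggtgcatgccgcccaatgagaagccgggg
Leo1: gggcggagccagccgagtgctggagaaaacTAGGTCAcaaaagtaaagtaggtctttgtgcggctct
A match is a description of the letters, not a measured binding site.

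The ratio spanned 9.20 log2 units across livers on the one diet. In the higher set it was 5.58 in mouse 208, 5.08 in mouse 240, 4.89 in mouse 136, 4.72 in mouse 245, 4.51 in mouse 159 and 3.96 in mouse 183. In the lower set it was 3.79 in mouse 137, 3.71 in mouse 182, 2.17 in mouse 122, 0.35 in mouse 120, 0.22 in mouse 189 and -3.62 in mouse 188. Most control livers thus sat close together at a high ratio, and the rest trailed away from them. The sixth and the seventh liver differed by only 0.17, so the line between the sets runs through livers with nearly the same ratio. The largest gap, 3.84, separated mouse 188 from all the others. The mean was 4.79 ± 0.546 (SD, n = 6) in the higher set and 1.10 ± 2.78 (SD, n = 6) in the lower.

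Both genes of the pair moved along this order. Dbp (chr7:45705088-45710203, plus strand) had 68.4 to 104.7 CPM in the higher set, and in the lower set 83.6 and 65.5 CPM in mice 137 and 182 and from 43.7 down to 1.84 CPM in the other 4. Arntl (chr7:113207465-113314126, plus strand) had 2.15 to 4.37 CPM in the higher set and 4.98 to 23.0 CPM in the lower. Mouse 188 held 52 counts of Dbp and 649 of Arntl, whereas mouse 208 held 2772 and 57. Ordering by Arntl alone gave the same 6 and 6 livers. Ordering by Dbp alone put mouse 137 at rank 3 and mouse 183 at rank 7, so these 2 changed sets.

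**Figure D1:**
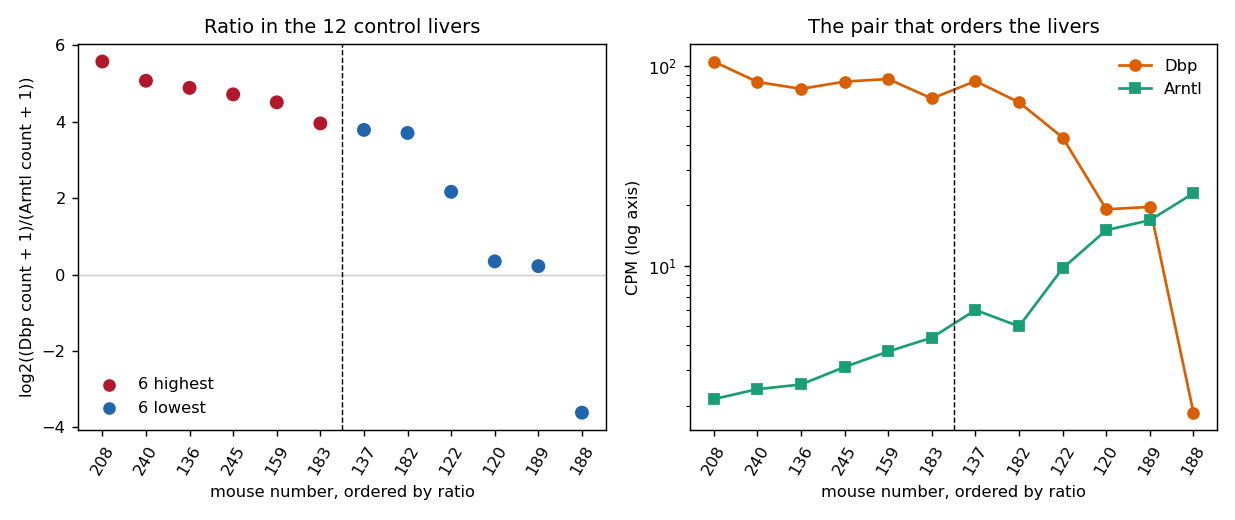
Left, the log2 Dbp to Arntl ratio of each control liver (vertical axis) by mouse number, ordered from the highest ratio to the lowest, with a dashed line between the higher and the lower set. Right, Dbp and Arntl in CPM on a log axis in the same order; mouse 188, at a ratio of -3.62, stands 3.84 below its neighbour.

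The control ratios lay mostly above those of Red and among those of Tangerine. Red livers ranged from -3 to 3.22 with a median of -0.234, Tangerine livers from 1.44 to 6.94 with a median of 3.56, and the control median was 3.87. Mice 122, 120 and 189 were the only controls within the Red range; mouse 188 lay below it and the other 8 above. Within the controls the ratio was set against the mouse number, the one label that differs between these mice, and against the total count. For mouse number Pearson's r was 0.230 (two-sided permutation p = 0.486, adjusted over both measures 0.690) and Spearman's rho 0.364 (permutation p = 0.246, adjusted 0.493, n = 12). Without the 2 livers farthest from the median mouse number r was 0.026, and without mouse 188 it was 0.464 (permutation p = 0.145, n = 11). For total count r was -0.136 (permutation p = 0.690, adjusted 0.690) and rho 0.077 (permutation p = 0.817, adjusted 0.817, n = 12), and r was -0.200 without the 2 farthest livers and 0.129 without mouse 188. Neither relation passed the threshold in the controls. In the tomato-diet livers the relation of the ratio to mouse number was not tested. There the highest ratios, 6.54, 6.94 and 6.37, were those of Tangerine mice 215, 216 and 217, whose numbers are consecutive.

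Total counts of the control libraries ran from 21290169 to 30607817, against 21290169 to 33810573 over all 36. No 2 control libraries looked like a repeat of one library: the smallest chi-square per degree of freedom among 66 pairs was 13.7. Hepatocyte markers summed to about the same level in both sets, with medians of 110300 CPM in the higher and 112800 CPM in the lower. No marker of another cell type separated the sets, against 0.213% of all genes tested, a share at which none would be likely among so few markers. The 6 Kupffer cell markers summed to 137 to 220 CPM in the higher set and 84.4 to 279 CPM in the lower, with mouse 188 the highest liver. Mouse 188 was also the highest of the 12 in cholangiocyte markers, at 30.3 CPM. Mouse 137 was the lowest in Kupffer markers and in sinusoidal endothelial markers, the latter at 36.2 CPM against 97.9 to 120 CPM elsewhere. Markers of pancreas acinar cells reached at most 0.076 CPM, with Cela2a, Cela3b, Cpa1 and Prss2 at 0 in all 12 livers. Lrat, Ms4a1 and Alas2, markers of stellate, B and erythroid cells, were also at 0 in all 12. Whether such a gene was silent or not counted was not tested. Adipocyte markers other than Car3 summed to 2.93 to 6.17 CPM. Immediate early genes summed to 37.1 to 66.5 CPM in the higher set and 42.4 to 91.1 CPM in the lower. All 7 of them were lower in the higher set, with a median difference of -0.48 on the log2 scale. So were all 6 Kupffer markers (median -0.18) and all 4 tested markers each of T cells (-0.16), cholangiocytes (-0.19) and erythroid cells (-0.16). T cell markers summed to at most 4.10 CPM. Sinusoidal endothelial markers went mostly the other way, with 3 of 4 higher in the higher set (median 0.19). Of 4 tested markers each of B and stellate cells, 1 was higher and 3 lower. None of these genes passed the test in the tomato-diet livers, against 3.58% of all genes tested. At that share lists of this size would hold few or no such genes. The part of these levels in the results below was not tested. In bulk RNA, fewer cells of a type and less RNA per cell cannot be told apart.

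Few genes separated the 6 and 6 control livers completely. The genes that followed the ratio in the tomato-diet livers, counted by another criterion, mostly had slopes of the same sign in the controls. In the controls 30 of 14066 genes did not overlap between the sets (0.213%): 9 were higher at the higher ratio (0.064%) and 21 lower (0.149%). That total is about what a split of 6 and 6 livers unrelated to the genes would give. Separation by itself therefore does not tie a gene to the ratio. In the tomato-diet livers 503 genes passed the test (3.58%), of which 273 rose with the ratio (1.94%) and 230 fell (1.64%). The control slope had the same sign for 470 of these 503 (93.4%), against 61.5% of all genes tested. This share ran from 89.9% without mouse 189 to 95.4% without mouse 188. The genes that rose had a median slope of 0.092 in the tomato-diet livers and 0.050 in the controls, and those that fell -0.11 and -0.054. Leaving out mouse 188 raised the median absolute control slope of the 503 genes from 0.052 to 0.081.

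**Figure D2:**
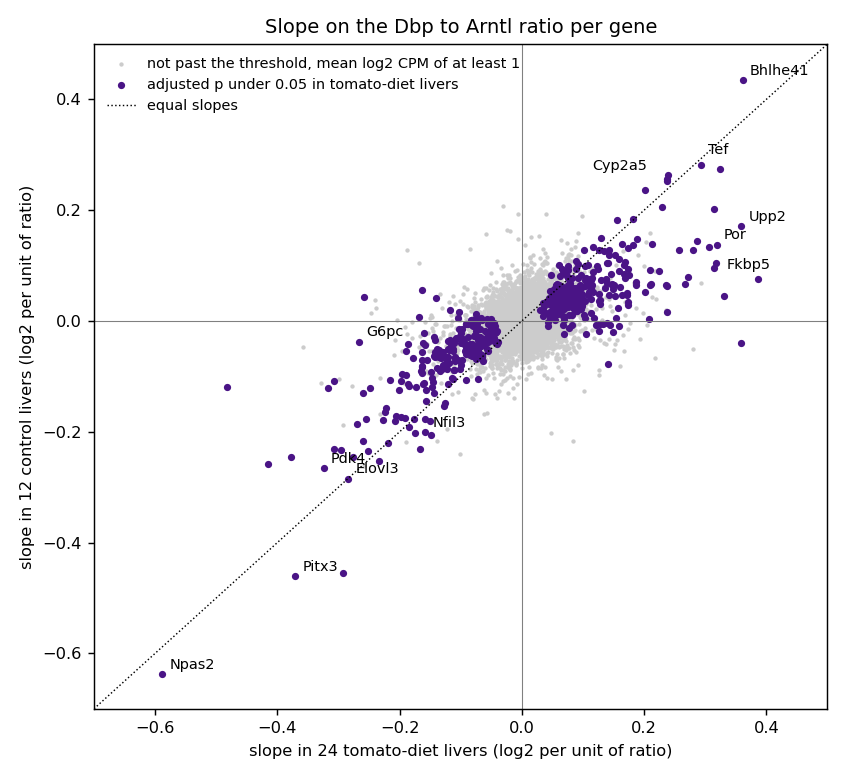
Slope of each gene on the Dbp to Arntl ratio in the 24 tomato-diet livers (horizontal axis) and in the 12 control livers (vertical axis), both in log2 per unit of ratio. Dark points are the 503 genes past the threshold in the tomato-diet livers, of which 470 have the same sign in the controls; Dbp and Arntl are not drawn.

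No gene was shown to follow the ratio differently in the control livers. The control slope minus the mean of the Red and Tangerine slopes passed the threshold for 0 genes (0%) in edgeR's quasi-likelihood test on all 36 libraries, with 441 genes at an unadjusted p under 0.05. DESeq2 also called 0, with 452 unadjusted, and limma-voom 0, with 424. Each of these unadjusted counts is below 0.05 of the genes tested, the share expected if no slope differed. Such a count does not show that the slopes were equal. Without control mouse 189 edgeR called a single gene, Itga5, at a slope difference of 0.13 (adjusted p = 0.046). Of the 503 genes past the threshold in the tomato-diet livers, 8 were also among the 30 that separated the control sets: Mtrr and Gm6157, which rose, and Nfil3, Cdkn1a, Leap2, Arhgef19, Litaf and Net1, which fell. Gm6157, Litaf and Net1 were chosen for naming after their values were seen.

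Of 6 measured activators and genes of the Arntl phase, 3 fell with the ratio in the tomato-diet livers (Npas2, Nfil3, Cry1). The share that fell over all genes was 1.64%. None of the 6 rose and 3 did not pass. In the controls the median difference of the 6, higher minus lower set, was -0.39 on the log2 scale, against -0.002 for all genes tested. Nfil3 alone of the 6 separated the sets.

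Npas2 (chr1:39193731-39363236, plus strand) encodes the partner of ARNTL that can stand in for CLOCK. It had 0.102, 0.259 and 0.644 CPM (lowest, median, highest) in the higher set and 0.281, 2.50 and 5.49 CPM in the lower. The sets overlapped only through mouse 182, at 0.281 CPM, while mice 122, 120, 189 and 188 went up from 1.08 to 5.49 CPM as their ratio went down. The fitted control difference was -3.20, and -2.88 without mouse 188. Because the higher set held at most 0.644 CPM, the size of this difference is imprecise. In the tomato-diet livers the slope was -0.59 ± 0.059 (SE, n = 24; adjusted p = 6.4e-07), or 0.665 times per unit of ratio. Its call also held in each tomato diet taken alone.

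Nfil3 (chr13:52967209-52981073, minus strand), the repressor that competes with DBP at the D-box, had 9.47, 12.5 and 19.5 CPM in the higher set. In the lower set it had 19.9, 25.4 and 48.6 CPM. The sets met but did not overlap, with mouse 183 at 19.5 CPM just under mouse 122 at 19.9 CPM, and mouse 188 was the highest. The control difference was -1.10, and -0.88 without mouse 188. Its slope in the tomato-diet livers was -0.16 ± 0.036 (SE, n = 24; edgeR adjusted p = 0.012). Cry1, which encodes a repressor that peaks late and follows the Arntl side of the cycle, had 6.43 to 8.87 CPM in the higher set and 8.35 to 14.98 CPM in the lower. Its slope was -0.12 ± 0.021 (edgeR adjusted p = 0.0010). Nfil3 passed in neither tomato diet alone (adjusted p = 0.217 in Red, 0.149 in Tangerine) nor with Dbp alone as the measure (adjusted p = 0.073). Cry1 passed in Red alone (adjusted p = 0.014) and not in Tangerine (adjusted p = 0.264).

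The other 3 did not pass. Clock, the usual partner of ARNTL, had a median of 44.6 CPM in the higher and 53.1 CPM in the lower set, with a slope of -0.069 (adjusted p = 0.162). Rora, a nuclear receptor that activates Arntl, had a control difference of -0.18 and a slope of 0.044 (adjusted p = 0.397). Arntl2, a relative of Arntl, had at most 0.629 CPM in the control livers.

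The repressors lay on the other side of the ratio. All 7 measured members had a positive control difference, with a median of 0.49, although none separated the sets. In the tomato-diet livers 5 of the 7 rose (Per1, Nr1d1, Nr1d2, Cry2, Bhlhe41), against 1.94% of all genes tested. None fell, and Per2 and Bhlhe40 did not pass. None of the 5 kept its call in both tomato diets taken alone. Per1 and Bhlhe41 passed in neither. Nr1d1 did not pass in Tangerine (edgeR adjusted p = 0.534), nor Cry2 and Nr1d2 in Red (edgeR adjusted p = 0.579 and 0.065). With Dbp alone as the measure Per1, Cry2 and Bhlhe41 lost their calls (edgeR adjusted p = 0.052, 0.057 and 0.065). With Arntl alone Nr1d1 lost its call (edgeR adjusted p = 0.137). Per2 passed with Arntl alone as the measure (adjusted p = 0.047) and without Red mouse 156 (adjusted p = 0.043), and Bhlhe40 with mouse number as a covariate (adjusted p = 0.027). Without mouse 188 the control difference of Cry2 turned to -0.10, and that of Nr1d1 shrank from 0.18 to 0.043.

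Per1 (chr11:69095217-69109960, plus strand), a repressor that also answers acutely to glucocorticoids, had 24.3, 38.5 and 48.8 CPM in the higher set and 8.29, 24.6 and 50.1 CPM in the lower. The overlap was wide: mouse 182, in the lower set, had the most of any control liver, and mouse 189 the least. Between the sets Per1 differed by 0.50 (log2), and the slope in the tomato-diet livers 0.31 ± 0.071 (SE, n = 24; adjusted p = 0.014), or 1.24-fold per unit. Per2 had 29.0, 47.0 and 61.8 CPM against 24.2, 30.6 and 34.8 CPM, a control difference of 0.61. The 4 livers with the most Per2, mice 208, 159, 245 and 240, were all in the higher set. Its slope of 0.091 did not pass (adjusted p = 0.126).

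The REV-ERB genes showed how mouse 137 departs from its neighbours. Nr1d1 had 64.5, 94.0 and 110.5 CPM in the higher set and 39.5, 71.0 and 144.5 CPM in the lower, where the 144.5 CPM of mouse 137 was the highest of all 12. Its paralog Nr1d2 had 69.8, 94.1 and 112.1 CPM against 45.1, 64.2 and 104.9 CPM, and here mouse 137 was the lowest of all 12. The slopes in the tomato-diet livers were 0.13 ± 0.032 for Nr1d1 (edgeR adjusted p = 0.021) and 0.17 ± 0.022 for Nr1d2 (edgeR adjusted p = 3.0e-05). The call of Nr1d1 was lost without Red mouse 177 (adjusted p = 0.051).

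Bhlhe41, a repressor that competes for E-boxes, had 0.696, 1.77 and 2.46 CPM in the higher set and 0.177, 0.558 and 2.40 CPM in the lower. Mouse 137 was again the exception, at 2.40 CPM; without it the control difference went from 0.99 to 1.56. The slope was 0.36 ± 0.088 (SE, n = 24; adjusted p = 0.020), and the call was lost without Tangerine mouse 217 (adjusted p = 0.062). Its relative Bhlhe40 had 113.8 to 216.9 CPM against 77.7 to 135.6 CPM and a slope of 0.089 (adjusted p = 0.307). Cry2 had a median of 21.1 CPM in the higher and 20.3 CPM in the lower set, from 10.7 CPM in mouse 188 to 32.9 CPM in mouse 137. Its slope in the tomato-diet livers was 0.10 ± 0.022 (edgeR adjusted p = 0.0055).

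Tef and Hlf, the PAR bZip relatives of Dbp, both rose with the ratio. Tef (chr15:81802421-81826863, plus strand) had 142.2, 164.6 and 210.5 CPM in the higher set and 34.9, 92.0 and 171.1 CPM in the lower. Mice 182 and 137 held 171.1 and 126.6 CPM, and mice 122, 120, 189 and 188 then went down in the order of their ratio, from 109.6 to 34.9 CPM. Tef differed between the control sets by 0.84 (log2), and by 0.67 without mouse 188. The slope in the tomato-diet livers was 0.29 ± 0.019 (SE, n = 24; adjusted p = 3.1e-10), or 1.22-fold per unit, and the call held in each tomato diet alone. Hlf had 50.7, 72.0 and 77.4 CPM against 37.3, 52.4 and 80.2 CPM, with mouse 208, the liver with the highest ratio, the lowest of its set. Its slope was 0.12 ± 0.028 (edgeR adjusted p = 0.013), and it did not pass in either tomato diet alone.

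**Figure D3:**
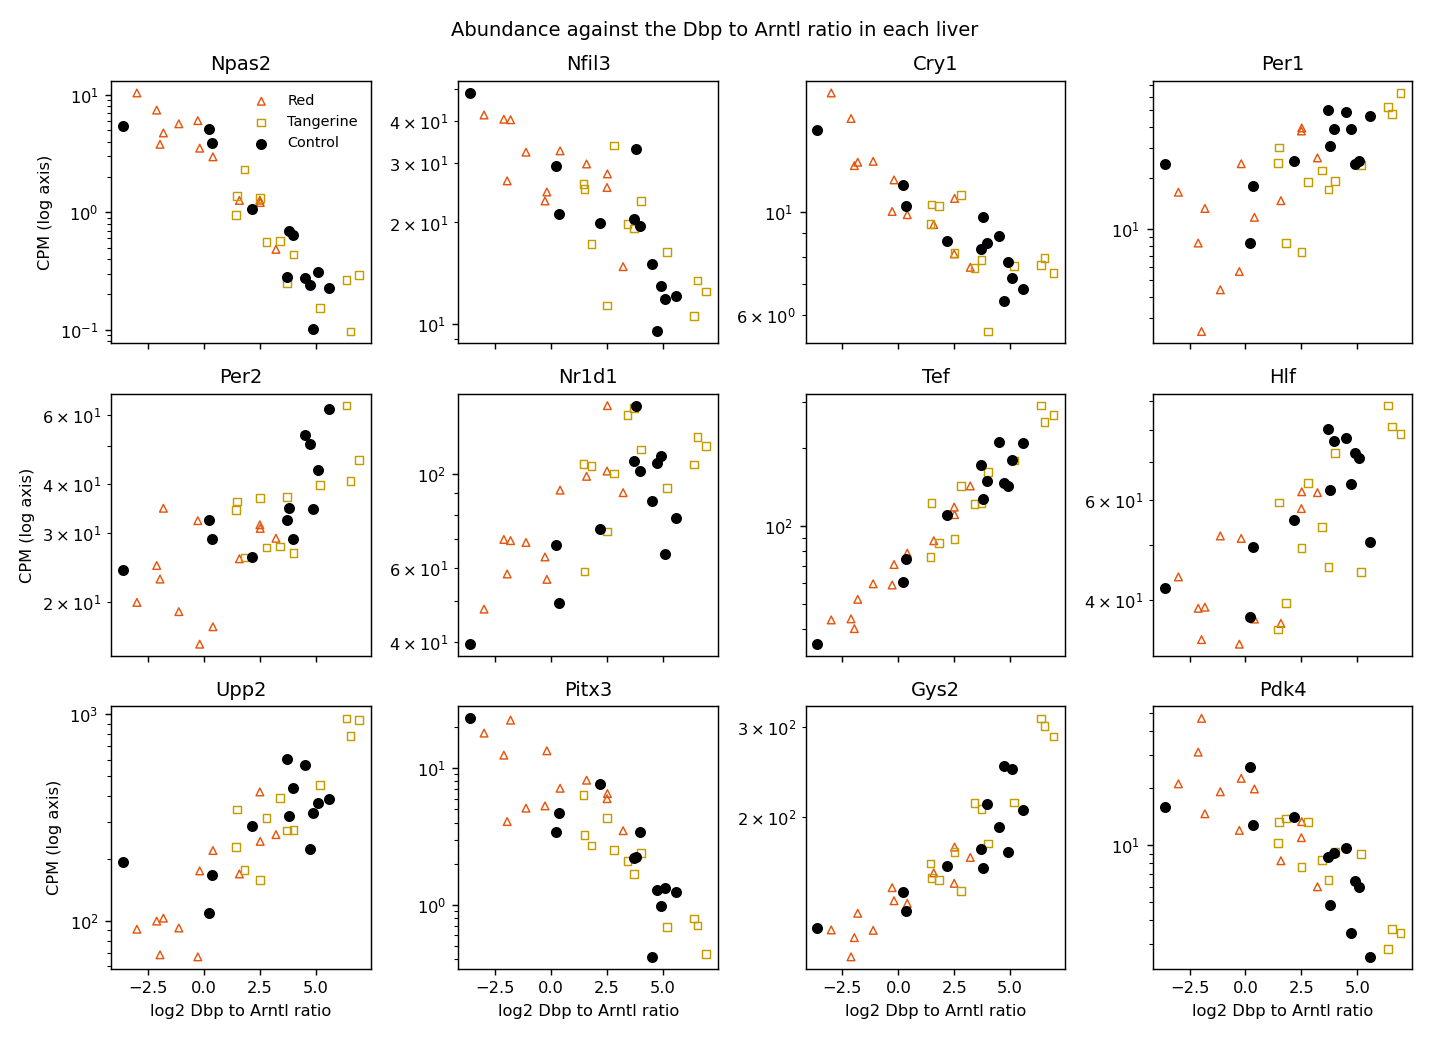
Abundance in CPM (log axis) of 12 clock and output genes against the log2 Dbp to Arntl ratio in each of the 36 livers, 1 point per liver. Control livers are filled circles, Red open triangles and Tangerine open squares; Npas2, Nfil3, Cry1, Pitx3 and Pdk4 slope downward and Tef, Hlf, Upp2 and Gys2 upward, with mouse 188 the leftmost point of every panel.

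Output genes of the liver clock split between both directions. Of 20 measured, 8 rose (Upp2, Por, Coq10b, Nampt, Gys2, Tspan4, Tns2, Fmo5), 7 fell (Pitx3, Elovl3, Insig2, Dtx4, Ypel2, Leo1, Ppard) and 5 did not pass (Alas1, Lpin1, Lonrf3, Mfsd2a, Rgs16). Over all genes tested 1.94% rose and 1.64% fell. Another 4 members, Wee1, Usp2, Avpr1a and Slc45a3, and the repressors Per3 and Ciart are listed at 0 in all 36 libraries and were not tested. The 20 measured output genes had a median control difference of -0.038, and none of them separated the 6 and 6 livers. The calls of Ppard and Fmo5 were lost in 17 and 4 of the 24 fits that each left out 1 liver, with adjusted p up to 0.115 and 0.077. Alas1 and Lpin1 passed with mouse number as a covariate (adjusted p = 0.026 and 0.031), Lonrf3 in the Red livers alone (adjusted p = 0.025), and Alas1, Lpin1 and Mfsd2a without Tangerine mouse 128 (adjusted p = 0.029, 0.029 and 0.045). Alas1 also passed without Red mouse 175 (adjusted p = 0.042), without Tangerine mouse 195 (adjusted p = 0.048) and with DESeq2 (adjusted p = 0.048).

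Among the genes that rose, Upp2 encodes a uridine phosphorylase of liver. It had 223.1, 381.1 and 565.8 CPM in the higher set and 108.3, 240.9 and 606.7 CPM in the lower, where mouse 182 again stood with the higher set. For Upp2 the control difference was 0.47 and the slope in the tomato-diet livers 0.36 ± 0.043 (SE, n = 24; adjusted p = 1.2e-05). Por, the electron donor of the microsomal cytochromes P450, had 122.8 to 269.4 CPM against 67.2 to 229.3 CPM and a slope of 0.32 ± 0.040 (edgeR adjusted p = 2.2e-05). Gys2, the liver glycogen synthase, came nearest to separating the sets, at 170.5, 209.2 and 251.3 CPM against 120.7, 150.2 and 172.6 CPM. Only mouse 182, at 172.6 CPM, lay above the lowest liver of the higher set. Gys2 had a control difference of 0.53 and a slope of 0.14 ± 0.016 (edgeR adjusted p = 6.8e-06). Nampt, the rate-limiting enzyme of NAD salvage, had medians of 61.3 and 47.3 CPM and a slope of 0.19 ± 0.018 (edgeR adjusted p = 2.1e-07). Coq10b, whose promoter is shown above, had medians of 40.7 and 30.3 CPM and a slope of 0.27 ± 0.032 (edgeR adjusted p = 1.2e-05). These slopes are those of the tomato-diet livers. In the controls the slopes of Upp2, Por, Gys2, Nampt and Coq10b were 0.17, 0.14, 0.105, 0.071 and 0.066. None of the slope differences, control minus tomato diets, passed (edgeR adjusted p = 0.992 for each).

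Pitx3 and Elovl3 had the most negative control differences of the output genes. Pitx3 (chr19:46135685-46148326, minus strand), a homeobox factor, had 0.418, 1.26 and 3.44 CPM in the higher set and 2.21, 4.05 and 23.2 CPM in the lower. Mouse 188 held 23.2 CPM and the next liver, mouse 122, 7.71 CPM; the control difference was -2.33, and -1.49 without mouse 188. The slope was -0.37 ± 0.068 (SE, n = 24; edgeR adjusted p = 0.0016). Elovl3 (chr19:46131897-46135694, plus strand), which elongates very long chain fatty acids, had 69.6, 137.2 and 228.4 CPM against 118.2, 237.0 and 827.2 CPM. Here too mouse 188 was the highest, and the control difference went from -1.24 to -0.74 without it. Its slope was -0.28 ± 0.053 (SE, n = 24; edgeR adjusted p = 0.0022). The annotated spans of this neighbouring pair share 10 bases on opposite strands, and the strand setting of the counting is not given in the sources used here, so reads over those bases cannot be assigned.

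The other falling outputs depended less on mouse 188, except Ppard. Insig2, which holds back the processing of the sterol regulatory proteins, had 139.1, 181.1 and 323.2 CPM in the higher and 226.1, 368.6 and 431.8 CPM in the lower set. Its control difference was -0.80, and -0.74 without mouse 188; the slope was -0.21 ± 0.028 (edgeR adjusted p = 4.45e-05). Ypel2 had 5.88, 9.31 and 16.5 CPM against 12.6, 20.7 and 29.3 CPM. Its highest liver was mouse 120, and its control difference of -1.04 was -1.05 without mouse 188. The slope of Ypel2 was -0.15 ± 0.032 (edgeR adjusted p = 0.0084). Dtx4 had medians of 10.8 and 15.5 CPM and Leo1 of 11.0 and 15.2 CPM, with slopes of -0.16 and -0.145. Ppard, a fatty acid sensing receptor, had a control difference of -0.84 that was -0.52 without mouse 188, which held 23.98 CPM against at most 14.03 CPM in the others.

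Lpin1, which encodes a phosphatidate phosphatase, is a case where the order fails in the controls. It had 162.2, 607.7 and 819.1 CPM in the higher set and 157.1, 537.4 and 1108 CPM in the lower. Its highest liver was mouse 188, at the lowest ratio, and its lowest was mouse 189, the next in order. The control difference was -0.042, and 0.23 without mouse 188. In the tomato-diet livers its slope of 0.28 did not pass (adjusted p = 0.0919). Alas1, the first enzyme of haem synthesis, was as scattered, with 1079 CPM in mouse 208, 107.5 CPM in mouse 189 and 406.9 CPM in mouse 188, and a slope of 0.29 (adjusted p = 0.076).

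**Figure D4:**
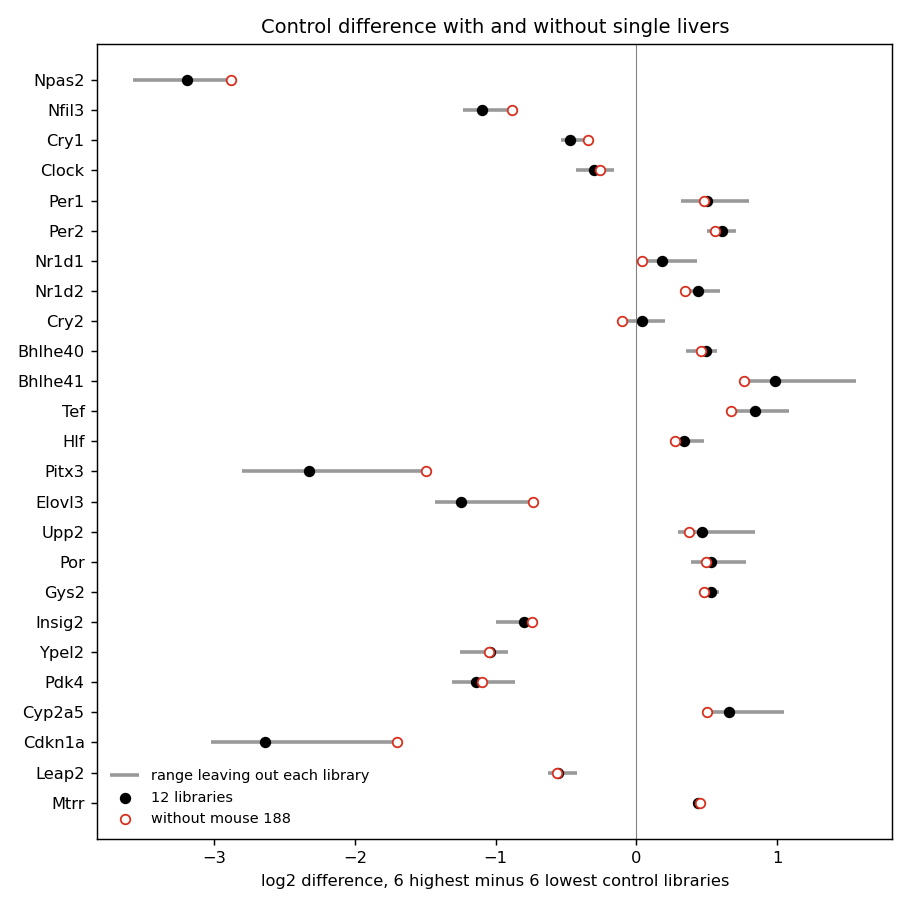
Fitted log2 difference between the 6 control livers with the highest and the 6 with the lowest ratio (horizontal axis) for 25 genes. Filled circles use all 12 livers, open circles leave out mouse 188 and grey bars span the values with each liver left out in turn. Npas2, Pitx3 and Cdkn1a lie farthest left, and for each of them the value nearest 0 is the one without mouse 188.

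Of 19 measured genes that respond to feeding and fasting, 1 rose (Cpt1a), 2 fell (Pdk4, G6pc) and 16 did not pass, against 3.58% past the threshold over all genes, and none separated the control sets. Pdk4, which restrains glucose oxidation in fasting, had 2.57, 6.24 and 9.61 CPM in the higher set and 4.85, 13.4 and 25.8 CPM in the lower. The 4 livers of lowest ratio held the 4 highest values, from 12.8 to 25.8 CPM, and the control difference of -1.14 was -1.09 without mouse 188. The slope was -0.32 ± 0.050 (SE, n = 24; edgeR adjusted p = 0.00030). G6pc, which releases glucose from the liver cell, fell in the tomato-diet livers with a slope of -0.27 ± 0.065 (edgeR adjusted p = 0.020), but its control difference was 0.087. Its highest control liver was mouse 240, at 1380 CPM, in the higher set. The calls of G6pc and Cpt1a were lost in 3 and 9 of the 24 fits without 1 liver, with adjusted p up to 0.060 and 0.074, and both with mouse number as a covariate (adjusted p = 0.078 for each).

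Sterol and bile acid genes did not pass in any case. Of 23 measured genes of cholesterol synthesis none passed the test, with a median control difference of -0.039. Of 8 genes of bile acid synthesis and transport none passed, with a median of 0.15. Over all genes 3.58% passed, and at that share lists of this size would hold few or no such genes.

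Glucocorticoid targets rose in part in the tomato-diet livers and were scattered in the controls. Of 8 measured, 2 rose (Fkbp5, Zbtb16) and 6 did not pass, against 1.94% that rose over all genes. Fkbp5, which encodes a chaperone of the glucocorticoid receptor, had 20.8, 42.6 and 96.1 CPM in the higher set and 14.7, 37.3 and 128.3 CPM in the lower. Mouse 182 held the most, and mice 120 and 189 the least. The control difference was -0.030 while the tomato-diet slope was 0.32 ± 0.056 (SE, n = 24; adjusted p = 0.0012). Zbtb16 had medians of 23.2 and 25.5 CPM, mouse 182 was again the highest at 70.7 CPM, and the slope was 0.33 ± 0.072 (edgeR adjusted p = 0.0085). The slope differences, control minus tomato diets, of -0.21 and -0.29 did not pass (adjusted p = 0.992 for both). The 8 genes had a median control difference of -0.34 and all 8 were lower in the higher set.

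Of 20 xenobiotic genes 3 rose (Cyp2a5, Cyp2a4, Nr1i2), none fell and 17 did not pass, against 1.94% that rose over all genes. Cyp2a5, a coumarin hydroxylase, had 160.4, 212.8 and 274.5 CPM in the higher set and 56.3, 100.4 and 289.4 CPM in the lower. Mouse 137 had the most of all 12 livers, and mice 188, 120, 189 and 122 the least, in that order; the control difference of 0.66 became 1.05 without mouse 137. The slope was 0.24 ± 0.029 (SE, n = 24; adjusted p = 1.0e-05). Cyp2a4 was lowest in the same 4 livers, with medians of 7.98 and 3.89 CPM and a slope of 0.24 ± 0.036 (edgeR adjusted p = 0.00018). These 2 genes are near-identical copies, so the split of reads between them is uncertain. Nr1i2, the pregnane X receptor, passed narrowly (slope 0.079, adjusted p = 0.045) and lost its call in 16 of 24 fits without 1 liver, with adjusted p up to 0.112. Of 11 heat shock and cold inducible genes only Hspe1 passed, with a slope of 0.043 and a control difference of -0.029. Its call was lost without Red mouse 204 (adjusted p = 0.051) and without Tangerine mouse 215 (adjusted p = 0.059).

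Outside these lists the 6 genes with the most negative control difference among those that separated the sets, at a mean log2 CPM of at least 1, were Cdkn1a, 4430402I18Rik, Tmprss2, Leap2, Atp8b5 and Arhgef19, and the only 4 on the other side were Mtrr, Baz1a, Ccnd2 and Bend3. Cdkn1a (chr17:29090976-29100727, plus strand), which encodes the cell cycle inhibitor p21, had 0.428, 1.61 and 4.12 CPM in the higher set and 4.48, 6.78 and 40.0 CPM in the lower. The 40.0 CPM was mouse 188, while the other 5 lower livers stayed between 4.48 and 7.91 CPM. Without mouse 188 the control difference of -2.64 became -1.70. In the tomato-diet livers its slope was -0.29 ± 0.076 (SE, n = 24; adjusted p = 0.029), and the call was lost without each of 5 livers, Red mice 170 and 202 and Tangerine mice 215, 216 and 217, with adjusted p from 0.057 to 0.131. It was also lost with limma-voom (adjusted p = 0.063), without the low-count filter (0.074), with mouse number as a covariate (0.051), with Dbp alone (0.077) and in Red alone (0.574).

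Leap2, Mtrr and Arhgef19 did not rest on mouse 188. Leap2 (chr11:53422181-53423170, minus strand), which encodes a liver peptide that blocks the ghrelin receptor, had 40.5, 43.9 and 48.2 CPM in the higher set and 49.7, 61.1 and 95.1 CPM in the lower. Mouse 137 held the 95.1 CPM, and the control difference of -0.56 was -0.57 without mouse 188 and -0.42 without mouse 137. The slope of Leap2 was -0.14 ± 0.018 (SE, n = 24; edgeR adjusted p = 1.2e-05). Mtrr (chr13:68560780-68582149, minus strand), the reductase that keeps methionine synthase active, had 9.20, 9.64 and 10.7 CPM against 6.29, 7.29 and 7.82 CPM. Every liver of the higher set had at least 9.20 CPM and none of the lower more than 7.82 CPM. The control difference was 0.44, between 0.40 and 0.46 with any 1 liver left out, and the slope 0.076 ± 0.015 (SE, n = 24; edgeR adjusted p = 0.0025). Arhgef19, a guanine nucleotide exchange factor, had 31.5 to 38.4 CPM against 39.1 to 56.4 CPM and a slope of -0.12 ± 0.024 (edgeR adjusted p = 0.0062).

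The other 6 did not pass in the tomato-diet livers, and separation in the controls by itself does not tie them to the ratio. Ccnd2, a cyclin of the early cell cycle, had 8.66 to 11.0 CPM in the higher set and 4.25 to 8.55 CPM in the lower, with a slope of 0.042 (adjusted p = 0.402). Tmprss2, a transmembrane protease, had 2.88 to 5.01 CPM against 5.86 to 6.85 CPM and a slope of -0.051 (adjusted p = 0.252). Bend3 had a control difference of 0.31 and a slope of 0.0009 (adjusted p = 0.986). Baz1a, Atp8b5 and 4430402I18Rik had control differences of 0.42, -0.44 and -0.61 and slopes of 0.027 (adjusted p = 0.561), -0.027 (adjusted p = 0.573) and -0.056 (adjusted p = 0.283).

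The counts depend on where the line is drawn and on the livers used. Leaving out any 1 control liver gave 36 to 110 genes that separated the sets, since a set of 5 separates more easily than a set of 6; without mouse 188 the count was 56. Ordering by Dbp alone gave 73 genes. Because mice 137 and 183 then change sets, no gene can separate both splits, so none of the 30 could be among them. In the tomato-diet livers the count of 503 was 298, 305 and 313 without Tangerine mice 217, 215 and 216, the 3 livers of highest ratio, and 49 in the Red and 292 in the Tangerine livers alone. With mouse number as a covariate 401 genes passed, 344 of them among the 503.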

How the data were processed

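Per the labels' protocols, Qiagen kits gave RNA from preserved liver, which went into NEXTflex Rapid Directional libraries. The authors deposited 1 table of raw read counts per gene, with no normalization, for 36 libraries and 53715 identifiers. The submitters' processing notes name FastQC, Trimmomatic, edgeR and GRCm38.p6; the aligner, counter, annotation and strand setting are not given in the sources used here. No molecular identifiers are mentioned. Columns were matched to samples by the column name that each sample's description gives. Symbols (53620 identifiers) and gene positions came from GENCODE M21 (GRCm38), promoters from RefSeq.

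filterByExpr of edgeR 4.0.16 (count of 10, total of 15) kept 14068 genes. CPM and fits used TMM library sizes. Fits were glmQLFit with robust estimation; the standard error is the slope divided by the square root of F. The residual degrees of freedom of the tomato-diet fit were 21. Correlations used 100000 permutations. The script was tested on simulated data. DESeq2 1.42.0 and limma 3.58.1 were alternatives.

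The members and all gene lists were chosen with earlier results of these data known. Named genes were all tested clock members, up to 3 genes of smallest p-value past the threshold from each other list, and, outside the lists, up to 6 genes each way of largest control difference without overlap at a mean log2 CPM of at least 1; others are named as chosen later. One member of the activator list is not reported here and was left out of its counts. Some genes may count reads of near-identical copies. P-values measure the spread between these libraries. Markers of B and stellate cells were also summed: none separated the control sets, against 0.213% of all genes tested.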

Additional observations from a re-analysis of the deposited data

How the results depend on the processing

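No paired analysis was possible because no mouse number occurs in more than 1 diet. The count of 503 genes in the tomato-diet livers was 371 to 707 under a mean log2 CPM minimum of 1, no filter on low counts, DESeq2 size factors, an added count of 10 in the ratio, Arntl alone, the DESeq2 test, limma-voom and the mouse number as covariate. It was 212 with Dbp alone, 49 in Red alone and 292 in Tangerine alone, and 298 to 651 with any 1 liver left out. The 30 genes that separated the control sets became 18 at a mean log2 CPM of at least 1, 73 by Dbp alone, 179 for the 5 highest against the 5 lowest, 678 for 4 against 4, and 36 to 110 with any 1 liver left out. The count of 0 slope differences was 0 in every other fit except 1 gene without control mouse 189 (range 0 to 1). Without mouse 188, a setting chosen after seeing the data, the correlation of the ratio with total count turned from -0.136 to 0.129 and that with mouse number went from 0.230 to 0.464. Slopes that turned, none of them past the threshold, were Lonrf3 (0.020) and Mfsd2a (-0.028) in Tangerine alone, and Bend3 with Dbp alone (-0.0065), limma-voom (-7.92e-05), Red alone (-0.012) and 9 of the 24 fits without 1 liver (-0.0088 to 0.0076 over all 24). The cause of these changes was not tested, beyond the fewer livers in some fits. Of the named genes that passed, 35 lost the call in Red alone, 18 in Tangerine alone, 19 with Dbp alone, 7 without the low-count filter, 6 with mouse number as covariate, 4 with Arntl alone and 2 with limma-voom; calls were gained by 3 genes with mouse number and 1 each with Arntl alone, the DESeq2 test and Red alone. Low counts, as in Npas2 and Bhlhe41 below 1 CPM, limit precision.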

Other observations

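Outside all the lists, the steepest slopes past the threshold in the tomato-diet livers, at a mean log2 CPM of at least 1, were looked up in the control livers; these genes were chosen after their values were seen. The 6 that fell most were Tubb2a, Tubb2b, Mboat1, Nckap5, Dnmt3b and Asap2. Tubb2a, a beta tubulin (chr13:34074274-34078007, minus strand), had 38.7, 47.8 and 59.5 CPM (lowest, median, highest) in the higher set and 35.4, 86.4 and 190.3 CPM in the lower. Mice 189 and 188 held 190.3 and 180.1 CPM, and mouse 182, in the lower set, the least of all 12. The control difference was -1.20 and the tomato-diet slope -0.41 ± 0.062 (SE, n = 24; edgeR adjusted p = 0.00022). Its neighbour Tubb2b (chr13:34126748-34130466, minus strand) had the same 2 livers on top, at 18 and 16.3 CPM, and a slope of -0.38; the 2 genes are near-identical copies, so the split of reads between them is uncertain. Dnmt3b, a DNA methyltransferase, had 1.18, 1.79 and 2.26 CPM in the higher set and 0.963, 3.51 and 5.03 CPM in the lower, with mice 120, 188 and 189 the highest. Its slope was -0.26 ± 0.024 (edgeR adjusted p = 1.6e-07).

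The 6 that rose most were Nrg4, Pfkfb3, Fmo2, Tsku, Arhgef26 and Zfp972, and all had a positive control difference, from 0.35 for Arhgef26 to 0.71 for Nrg4. Nrg4, a secreted ligand of the ERBB receptors, had 4.26, 5.49 and 7.06 CPM in the higher set and 2.02, 2.96 and 6.86 CPM in the lower. Only mouse 182, at 6.86 CPM, lay within the range of the higher set. Its slope was 0.31 ± 0.037 (SE, n = 24; edgeR adjusted p = 6.8e-06). Pfkfb3, which makes the activator of glycolytic phosphofructokinase, had 33.2 to 80.0 CPM against 10.4 to 62.7 CPM, with mice 188 and 182 in the range of the higher set and a slope of 0.31 ± 0.065 (edgeR adjusted p = 0.0057). Tsku passed at a slope of 0.27 (adjusted p = 0.037) and lost its call in 8 of 24 fits without 1 liver, with adjusted p up to 0.122.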
